A study of Homo sapiens with 9 samples.

Results

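RNA sequencing of 9 libraries from C28/I2, a human chondrocyte line made to grow indefinitely, was used to describe the hypoxia pathway. The pathway is represented by 32 genes of the 60671 Ensembl genes in each table, chosen by name: the subunits of the hypoxia-inducible factors (HIF), the enzymes that sense oxygen, and genes that low oxygen is known to induce. All 32 were found by their Ensembl identifiers, and all 32 passed the filter on low counts that left 19812 genes for testing. The lowest count of any of them in any library was 36.

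The groups were CA2 shRNA, cells transduced with a short hairpin RNA against carbonic anhydrase 2 (CA2), Scrambled and Control, with 3 libraries each. The labels name 1 cell line. They do not describe the Scrambled construct, do not say whether Control cells were transduced, and give no oxygen level for any group. They also do not say that replicates were grown as separate cultures, so p-values here reflect only the spread among these samples, and that spread may be technical. In bulk RNA, fewer cells that express a gene and less RNA of it per cell cannot be told apart.

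Total counts ran from 16994368 to 34261244 per library. CA2 itself had 1.397, 0.905 and 1.10 CPM (counts scaled to the size of the library) in CA2 shRNA, 1.82, 1.96 and 2.06 CPM in the Scrambled and 2.31, 2.00 and 1.94 CPM in Control libraries. Every CA2 shRNA library was below every control library. Its log2 change was -0.77 against Scrambled (adjusted p = 0.0276) and -0.86 against Control (adjusted p = 0.0159), calls that passed in 13 and 16 of 19 alternative analyses. They were lost without CA2 shRNA 2 (adjusted p = 0.1 and 0.0665) or CA2 shRNA 3 (0.109 and 0.0759), against Scrambled also without Scrambled 2 (0.0533) or Scrambled 3 (0.103), and against Control without Control 1 (0.0531). CA2 had only 15 to 66 counts per library. On thinning all libraries to the smallest total, its change against Scrambled was -0.61 and did not pass (adjusted p = 0.121). Of 12 chondrocyte markers, 4 in CA2 shRNA and 5 in each control group averaged at least 1 CPM. The sum of all 12, mostly SOX9, was 120 to 123 CPM in CA2 shRNA, 108 to 113 CPM in the Scrambled and 101 to 117 CPM in the Control libraries. The transcription factor SOX9 had 105, 105 and 103 CPM in CA2 shRNA, 88.2 to 92.5 CPM in the Scrambled and 81.7 to 97.0 CPM in the Control libraries. It rose by 0.20 and 0.21 (adjusted p = 0.0364 and 0.0381). The matrix gene COMP had 1.55, 1.03 and 1.46 CPM in CA2 shRNA, 2.06 to 2.77 CPM in the Scrambled and 1.95 to 2.77 CPM in the Control libraries, and fell by 0.86 and 0.83 (adjusted p = 0.0161 and 0.0215). The matrix gene MATN3 averaged 11.8, 13.1 and 13.0 CPM and COL2A1 1.63 to 1.897 CPM over CA2 shRNA, Scrambled and Control, and neither passed. ACAN averaged 0.752 to 1.05 CPM and CHAD 0.530 to 0.712 CPM. SOX6 averaged 0.563, 1.07 and 0.809 CPM in the same groups, with every CA2 shRNA library below every control library. Its changes of -0.90 and -0.475 did not pass (adjusted p = 0.0724 and 0.434). SOX5, COL11A1, HAPLN1 and PRG4 had at most 7 counts in any library, and COL9A1 had none. The part of SOX9 and COMP, which changed in the same comparisons, in the hypoxia gene results was not tested. Summed immune, endothelial and epithelial markers reached at most 3.06, 4.86 and 1.71 CPM in any library, and summed neural markers, mostly MBP, lay at 28.0 to 29.7 CPM in CA2 shRNA, 26.5 to 28.9 CPM in the Scrambled and 26.1 to 28.4 CPM in the Control libraries.

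3 libraries stood apart from the rest of their group. Scrambled 2 and Control 3 held 4.08% and 4.06% mitochondrial counts, against 5.55% to 6.87% in the other 7 libraries. CA2 shRNA 1 stood apart in the hypoxia genes themselves: it was the highest of all 9 libraries for 21 of the 32 genes, whereas it was the highest for 9.18% of all tested genes. Results are therefore given with and without these 3 libraries where they change. The other libraries were not all even. Control 1 was at least 1.5-fold above the mean of its group mates for 4.2% of tested genes, though for 0 of the 32. That share was 0.278% to 1.36% in the remaining libraries, with 0.5 CPM added to each level.

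HIF is a transcription factor of an oxygen-labile alpha subunit, HIF1A or EPAS1, and a stable partner, ARNT. In the presence of oxygen, prolyl hydroxylases of the EGLN family mark the alpha subunit, VHL binds the mark and sends the protein to the proteasome, and the asparaginyl hydroxylase HIF1AN blocks its contact with coactivators. In low oxygen the alpha subunit persists, pairs with ARNT and binds hypoxia response elements, which carry the core ACGTG or GCGTG. Cartilage has no blood vessels, and in mice the growth plate needs HIF1A for chondrocytes to survive. Most of this control acts on the protein, which RNA counts do not show.

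The promoters of the induced genes that changed most are shown because this core is the pattern of letters that HIF is known to bind. RefSeq windows of 250 bases before to 50 bases after a start site (GRCh38.p14) were at hand for 27 of the 32 genes, as 39 windows. At least 1 core, read on both strands and with each CACGTG counted as a pair of overlapping matches, lay in 31 of the 39 windows (79.5%), beside 48.4% of all 35116 windows and 59.5% of the 17948 windows of tested genes. By gene, 23 of the 27 had a core in at least 1 window. The core ACGTG was in 51.3% of the windows of these genes and in 24.8% of those of tested genes, while GCGTG was in 53.8% and 47.5%. Some genes have more than 1 window, so the windows are not independent. Many of the 32 genes were also chosen because low oxygen induces them, so these shares depend on that choice. A match describes these letters only and is neither a bound site nor a cause. Capitals mark the cores, which read CACGT and CACGC where they lie on the opposite strand. AK4, the mitochondrial adenylate kinase, is shown for chr1:65147302-65147548 on the plus strand, just before the first exon in GENCODE 29, with a GCGTG 145 bases before the start and a CACGTG further on.
AK4: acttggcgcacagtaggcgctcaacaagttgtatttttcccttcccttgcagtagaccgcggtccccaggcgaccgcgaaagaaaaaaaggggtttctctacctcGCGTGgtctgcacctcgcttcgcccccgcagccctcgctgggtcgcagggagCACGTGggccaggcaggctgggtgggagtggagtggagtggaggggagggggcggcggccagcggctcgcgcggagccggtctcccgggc
WSB1, which encodes the substrate receptor of a ubiquitin ligase, is shown for chr17:27293864-27294075 on the plus strand, again up to its first GENCODE exon, and this stretch also holds the microRNA gene MIR4522 on the opposite strand.
WSB1: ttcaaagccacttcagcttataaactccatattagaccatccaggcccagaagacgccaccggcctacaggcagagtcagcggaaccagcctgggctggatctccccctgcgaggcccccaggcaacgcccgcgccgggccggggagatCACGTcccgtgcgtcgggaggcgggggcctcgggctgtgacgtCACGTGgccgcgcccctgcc
ERO1A, the oxidase that drives disulphide bond formation in the endoplasmic reticulum, has some GENCODE transcripts that start further upstream, so only the 30 bases around each of its upstream cores are shown, on the minus strand at chr14:52695712-52695741 and chr14:52695656-52695685.
ERO1A, distal core: ggtgcgtcagcctCACGCggcgggaaggaa
ERO1A, proximal core: gcgggcgccgcggCACGTccacaggctggg
The window of HIF1AN held neither core.

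Against Scrambled, 9 of the 32 genes rose and 2 fell at an adjusted p under 0.05, where 8.02% of all tested genes rose and 8.88% fell. The adjusted p is Benjamini-Hochberg corrected over all 19812 genes, from edgeR's quasi-likelihood test on the counts of all 9 libraries. The genes that rose were EPAS1, ARNT, EGLN1, HIF1AN, VHL, VEGFA, AK4, ERO1A and WSB1, and those that fell were HIF1A and BHLHE40. Against Control, 10 rose and 1 fell, with 6.41% and 8.26% of all tested genes: the same 9 rose together with DDIT4, and HIF1A fell. The falls made up 6.25% of the 32 genes against Scrambled and 3.12% against Control, below the shares of all tested genes. The pair of comparisons share the CA2 shRNA libraries, so they are not independent of each other. The 32 genes were chosen with earlier results of these data known, so their counts beside these shares are descriptive only. In both, 9 genes were higher (5.49% of all tested genes) and 1 was lower (6.98%), and 20 of the 32 passed in neither.

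The median log2 change of the 32 genes was 0.24 against Scrambled and 0.23 against Control, where the medians of all tested genes were -0.03 and -0.01. In each comparison 24 of the 32 changes were above 0 (75.0%), beside 46.2% of all tested genes against Scrambled and 49.3% against Control. The 9 genes called higher in both were also the genes whose 3 CA2 shRNA libraries all lay above all 6 control libraries, a pattern that 11.7% of tested genes had. HIF1A and BHLHE40 lay below all 6, as did 11.9% of tested genes.

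**Figure D1:**
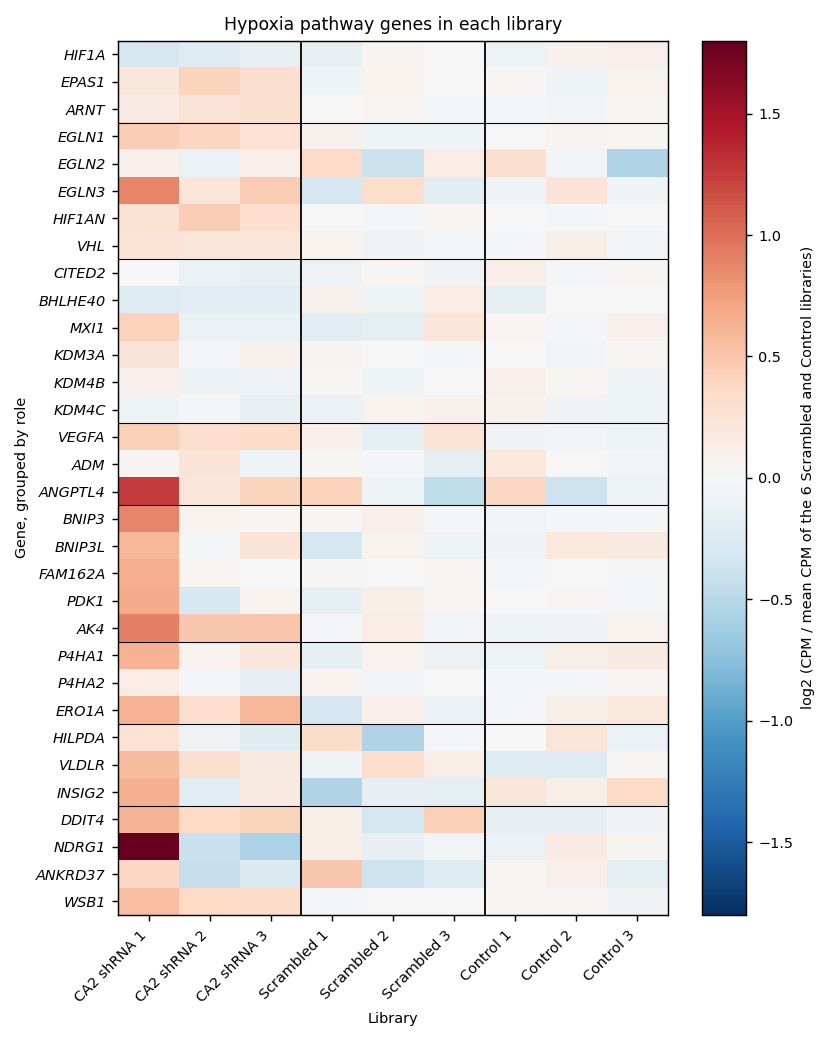
Colour gives the log2 ratio of a gene's CPM in 1 library (columns) to its mean over the 6 Scrambled and Control libraries, for the 32 genes (rows) grouped by role. EPAS1, ARNT, EGLN1, HIF1AN, VHL, VEGFA, AK4, ERO1A and WSB1 are warm in all 3 CA2 shRNA columns, while the strongest colour, NDRG1, is in CA2 shRNA 1 alone.

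The subunits moved in opposite directions: HIF1A RNA fell, a call lost in most alternatives against Scrambled, while EPAS1 and ARNT RNA rose. HIF1A (ENSG00000100644, chr14:61695513-61748259, plus strand) encodes the alpha subunit that drives the acute response to low oxygen. It had 296, 311 and 331 CPM in CA2 shRNA, 333, 376.5 and 362 CPM in the Scrambled and 341, 384 and 387 CPM in the Control libraries. The highest CA2 shRNA library lay just under the lowest Scrambled one. The log2 change of HIF1A was -0.19 against Scrambled (adjusted p = 0.0491, SE 0.064) and -0.24 against Control (adjusted p = 0.0145, SE 0.064). The direction was the same in all 19 alternative analyses, from -0.25 to -0.12 against Scrambled, but the threshold was passed in 7 of them against Scrambled and in 15 against Control. Against Scrambled the call was lost on leaving out any one of CA2 shRNA 1 (adjusted p = 0.311), CA2 shRNA 2 (0.103), CA2 shRNA 3 (0.0683), Scrambled 2 (0.217), Scrambled 3 (0.152), Control 2 (0.0534) or Control 3 (0.0515), and against Control without CA2 shRNA 1 (0.14), Control 2 (0.0586) or Control 3 (0.0684).

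EPAS1 (ENSG00000116016, chr2:46293667-46386697, plus strand), also called HIF-2 alpha, encodes the alpha subunit with the more tissue-restricted set of targets. CA2 shRNA libraries had 129.6, 148 and 137.5 CPM, Scrambled libraries 106.5, 117 and 113 CPM, and Control libraries 113.5, 106.5 and 117 CPM. No CA2 shRNA library overlapped a control library. The log2 change was 0.31 against Scrambled (adjusted p = 0.00212, SE 0.062) and 0.30 against Control (adjusted p = 0.00246, SE 0.062), and it passed in all 19 alternatives in both comparisons.

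ARNT (ENSG00000143437, chr1:150809713-150876708, minus strand) encodes the shared partner. Its levels were 71.5, 75.7 and 78.7 CPM in CA2 shRNA, 65.2, 66.6 and 64.0 CPM in the Scrambled and 63.5, 62.4 and 66.5 CPM in Control libraries. The groups did not overlap, although the lowest CA2 shRNA library, at 71.5 CPM, was close to the highest control library, at 66.6 CPM. ARNT rose by 0.21 (adjusted p = 0.0243, SE 0.06) and 0.23 (adjusted p = 0.0136, SE 0.06). Against Scrambled the call was lost without CA2 shRNA 2 (adjusted p = 0.0742), CA2 shRNA 3 (0.0686), Scrambled 3 (0.109) or Control 2 (0.0534), and against Control without CA2 shRNA 2 (0.0517) or Control 2 (0.104).

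Set per length, as RPKM (CPM for each kilobase of exon), HIF1A had the highest level of the 32 genes. Its mean was 60.5 ± 3.89 RPKM in CA2 shRNA, 69.5 ± 4.1 RPKM in Scrambled and 71.7 ± 4.54 RPKM in Control (SD, n = 3 each). EPAS1 averaged 18.9 ± 1.01, 15.4 ± 0.667 and 15.3 ± 0.78 RPKM in the same groups. The level of HIF1A was 3.24, 2.97 and 3.41 times that of EPAS1 within the CA2 shRNA libraries, 4.43, 4.57 and 4.55 times within Scrambled and 4.25, 5.1 and 4.69 times within Control libraries. All 3 ratios in CA2 shRNA were thus below all 6 in the controls. The ratio of HIF1A to ARNT behaved alike, at 5.14 to 5.27 in CA2 shRNA, 6.4 to 7.08 in Scrambled and 6.73 to 7.7 in Control libraries. These ratios follow from the changes already given and were not tested on their own.

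Of the 5 genes of oxygen sensing and degradation, EGLN1, HIF1AN and VHL rose in both comparisons, and EGLN2 and EGLN3 did not pass. HIF1AN (ENSG00000166135, chr10:100529072-100559998, plus strand), which encodes the asparaginyl hydroxylase also known as FIH, had 172, 193.5 and 175 CPM in CA2 shRNA, 142, 139 and 145 CPM in the Scrambled and 143, 140 and 143 CPM in the Control libraries. The 6 control libraries lay within 139 and 145 CPM, well clear of the CA2 shRNA libraries. Its log2 change was 0.34 in each comparison (SE 0.056 in both, adjusted p = 0.000326 against Scrambled and 0.000292 against Control), the smallest adjusted p among the 32 genes in both comparisons.

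EGLN1 (ENSG00000135766, chr1:231363751-231422287, minus strand), also called PHD2, encodes the main prolyl hydroxylase acting on HIF1A in oxygen. It stood at 39.7, 38.3 and 35.1 CPM in CA2 shRNA libraries, 30.9, 27.8 and 27.9 CPM in the Scrambled and 29.4, 30.4 and 29.7 CPM in Control libraries. All CA2 shRNA libraries were above all controls. EGLN1 rose by 0.39 (adjusted p = 0.00137, SE 0.074) against Scrambled and by 0.34 (adjusted p = 0.0041, SE 0.074) against Control. In the deposited gene models 55.8% of its exon bases are shared with ENSG00000287856 on the same strand, and how the counting treated such reads is not given, so its level is uncertain.

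VHL (ENSG00000134086, chr3:10141778-10153667, plus strand) encodes the part of the ubiquitin ligase that recognises hydroxylated HIF. It had 76.2, 74.6 and 74.7 CPM in CA2 shRNA, 67.2, 61.6 and 62.7 CPM in the Scrambled and 62.6, 68.7 and 61.8 CPM in Control libraries. The CA2 shRNA libraries were nearly equal and all above the controls. VHL rose by 0.24 (adjusted p = 0.0142, SE 0.063) against Scrambled and by 0.22 (adjusted p = 0.0209, SE 0.063) against Control. The call was lost against Scrambled without Scrambled 3 (adjusted p = 0.0732), and against Control without CA2 shRNA 2 (0.0688), Control 1 (0.0776) or Control 3 (0.105). In the gene models 24.0% of VHL's exon bases are shared with ENSG00000287086 on the opposite strand. The strand setting of the counting is not given, so the level of VHL is uncertain.

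EGLN2, a prolyl hydroxylase that is not known as a hypoxia-induced gene, had 15.97, 13.8 and 15.9 CPM in CA2 shRNA, 19.0, 11.4 and 16.5 CPM in the Scrambled and 18.3, 14.4 and 10.3 CPM in Control libraries. It was lowest in Control 3 and Scrambled 2, the control libraries with the lowest mitochondrial share, and the groups overlapped (log2 changes -0.03, SE 0.236, and 0.10, SE 0.239). EGLN3, a strongly hypoxia-induced prolyl hydroxylase in many cells, had 3.84, 2.41 and 2.85 CPM in CA2 shRNA, 1.69, 2.59 and 1.83 CPM in the Scrambled and 1.98, 2.44 and 1.97 CPM in Control libraries. CA2 shRNA 2 fell within the controls, and the changes of 0.58 (adjusted p = 0.0913, SE 0.225) and 0.53 (adjusted p = 0.137, SE 0.225) did not pass. Without Scrambled 2 the change against Scrambled was 0.81 and passed (adjusted p = 0.019). Per length, EGLN1 was the most abundant of the prolyl hydroxylases in every group, at 6.98 ± 0.408 RPKM in CA2 shRNA, followed there by EGLN2 at 2.31 ± 0.231 and EGLN3 at 0.412 ± 0.104 RPKM (SD, n = 3 each). The level of EGLN2 is uncertain in the same way as that of EGLN1, since 30.6% of its exon bases are shared with RAB4B-EGLN2 on the same strand.

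**Figure D2:**
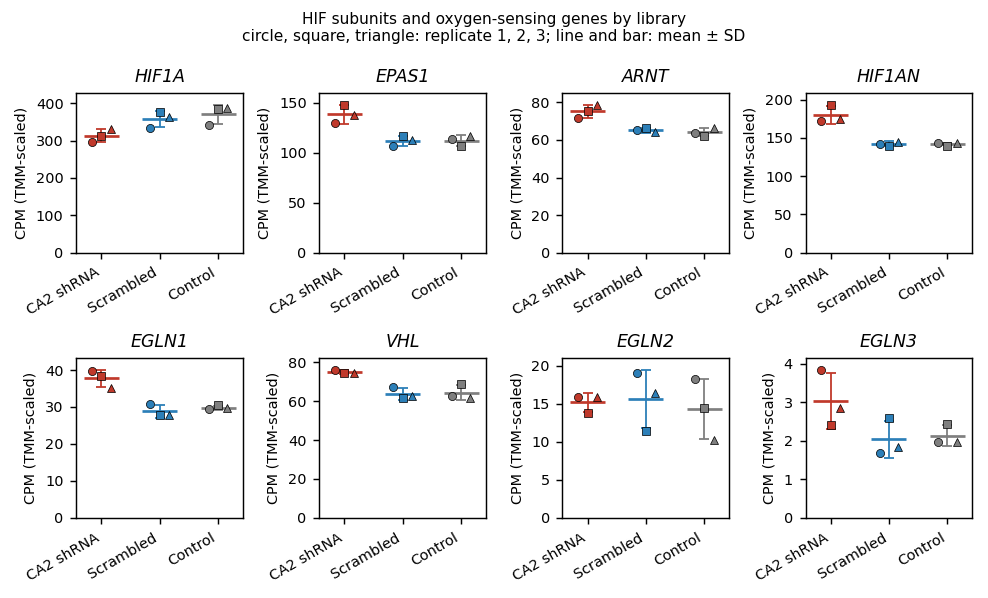
Each panel gives the CPM of 1 HIF subunit or oxygen-sensing gene in the 9 libraries (points), with the mean and SD of each group (line and bar). The CA2 shRNA points lie below all controls for HIF1A and above all controls for EPAS1, ARNT, HIF1AN, EGLN1 and VHL, and overlap them for EGLN2 and EGLN3.

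Of the 6 genes of transcriptional feedback and chromatin, 1 passed, a fall against Scrambled, and the medians of their log2 changes were -0.02 against Scrambled and -0.06 against Control. BHLHE40 (ENSG00000134107, chr3:4979437-4985323, plus strand), a hypoxia-induced transcriptional repressor also known as DEC1, had 174, 178 and 178 CPM in CA2 shRNA, 215, 191 and 224 CPM in the Scrambled and 181, 205 and 206 CPM in the Control libraries. All CA2 shRNA libraries were below all controls, with Control 1 close to them. BHLHE40 fell by 0.25 against Scrambled (adjusted p = 0.0121, SE 0.065), and its change of -0.16 against Control did not pass (adjusted p = 0.121, SE 0.065). Against Scrambled the call was lost without CA2 shRNA 1 (adjusted p = 0.0936), CA2 shRNA 3 (0.0621) or Scrambled 3 (0.091), while without Control 1 the change against Control was -0.22 and passed (0.0415). BHLHE40 shares 12.8% of its exon bases with BHLHE40-AS1 on the opposite strand.

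The other 5 did not pass in either comparison. CITED2, which competes with HIF for its coactivators, averaged 33.4 ± 1.68, 34.4 ± 1.77 and 36.3 ± 1.75 CPM in CA2 shRNA, Scrambled and Control (SD, n = 3 each). KDM3A, a histone demethylase induced by hypoxia, averaged 48.2 ± 4.2, 45.1 ± 1.2 and 44.9 ± 1.28 CPM. MXI1, an antagonist of MYC, had 13.9 CPM in CA2 shRNA 1 and 9.53 and 9.54 CPM in its group mates, with 9.02 to 12.1 CPM in the controls. The demethylases KDM4B and KDM4C had log2 changes between -0.11 and -0.00 over both comparisons.

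Of the 3 secreted proteins, VEGFA rose in both comparisons and ADM and ANGPTL4 did not pass. VEGFA (ENSG00000112715, chr6:43770184-43786487, plus strand), the growth factor of blood vessels, had 37.3, 34.2 and 34.7 CPM in CA2 shRNA, 29.2, 24.4 and 33.0 CPM in the Scrambled and 26.3, 26.7 and 25.8 CPM in Control libraries. Scrambled 3 came close to the CA2 shRNA libraries without reaching them. VEGFA rose by 0.29 against Scrambled (adjusted p = 0.0355, SE 0.091) and by 0.43 against Control (adjusted p = 0.00338, SE 0.092). The call against Control passed in all 19 alternatives, whereas that against Scrambled passed in 10 and was lost without CA2 shRNA 1 (adjusted p = 0.0903), CA2 shRNA 2 (0.0897), CA2 shRNA 3 (0.05), Scrambled 1 (0.0596), Scrambled 2 (0.0753) or Control 2 (0.0716).

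ADM, the vasodilator peptide adrenomedullin, averaged 60.0 ± 6.79, 55.1 ± 3.36 and 59.4 ± 5.33 CPM in CA2 shRNA, Scrambled and Control. ANGPTL4, an inhibitor of lipoprotein lipase, had 5.44, 2.66 and 2.998 CPM in CA2 shRNA, 1.66 to 3.02 CPM in the Scrambled and 1.76 to 2.94 CPM in Control libraries. Its log2 changes of 0.72 and 0.69 had SEs of 0.295 and did not pass (adjusted p = 0.119 and 0.148), and without CA2 shRNA 1 they were 0.37 and 0.35. Without Scrambled 1 the change against Scrambled was 0.95 and passed (adjusted p = 0.0429).

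The mitochondrial genes split into 1 that was higher in every CA2 shRNA library and 4 that were high in CA2 shRNA 1 alone or overlapped. AK4 (ENSG00000162433, chr1:65147549-65232145, plus strand), whose promoter is printed above with its cores in capitals, had 80.2, 59.9 and 60.4 CPM in CA2 shRNA, 41.8, 47.0 and 41.4 CPM in the Scrambled and 40.5, 41.1 and 44.8 CPM in Control libraries. The lowest CA2 shRNA library was well above the highest control. AK4 rose by 0.62 (adjusted p = 0.000707, SE 0.102) against Scrambled and by 0.66 (adjusted p = 0.000428, SE 0.102) against Control, the largest called change of the 32 genes in both comparisons. It passed in all 19 alternatives, and without CA2 shRNA 1 the changes were 0.51 (adjusted p = 0.000483) and 0.55 (0.000243).

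BNIP3, a receptor for mitophagy in the outer mitochondrial membrane, had 141, 80.4 and 77.8 CPM in CA2 shRNA, 78.6, 82.0 and 75.2 CPM in the Scrambled and 74.6, 75.3 and 76.0 CPM in Control libraries. FAM162A, a mitochondrial protein induced by hypoxia, had 32.1, 20.9 and 20.4 CPM in CA2 shRNA, against 20.6 to 20.8 CPM in the Scrambled and 19.9 to 20.3 CPM in Control libraries. PDK1, the kinase that shuts pyruvate out of the citric acid cycle, had 20.01, 10.3 and 13.2 CPM in CA2 shRNA, 11.3 to 13.6 CPM in the Scrambled and 12.3 to 12.8 CPM in Control libraries. In all 3, only CA2 shRNA 1 left the range of the controls by a wide margin, and the tests did not pass (adjusted p from 0.234 to 0.566). Without CA2 shRNA 3 the change of FAM162A against Control was 0.43 and passed (adjusted p = 0.0456). BNIP3L, the related mitophagy receptor, had 86.9, 56.3 and 67.4 CPM in CA2 shRNA, 45.9 to 60.1 CPM in the Scrambled and 55.1 to 65.4 CPM in Control libraries, and its changes of 0.40 and 0.19 did not pass either (adjusted p = 0.141 and 0.528). Without CA2 shRNA 2 the change of BNIP3L against Scrambled was 0.52 and passed (adjusted p = 0.0324).

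Among the enzymes of collagen hydroxylation and oxidative folding, ERO1A rose in both comparisons. ERO1A (ENSG00000197930, chr14:52639915-52695900, minus strand) had 77.6, 61.5 and 75.5 CPM in CA2 shRNA, 40.6, 53.6 and 45.9 CPM in the Scrambled and 49.3, 53.9 and 57.2 CPM in Control libraries. CA2 shRNA 2 was the lowest of its group and Control 3 the highest control, and these came within a few CPM of each other. ERO1A rose by 0.62 (adjusted p = 0.00159, SE 0.107) against Scrambled and by 0.42 (adjusted p = 0.018, SE 0.107) against Control. The call against Control was lost without Control 1 (adjusted p = 0.0701) or Control 2 (0.0697), and both calls passed without CA2 shRNA 1 (0.00421 and 0.0414).

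P4HA1, a catalytic subunit of the collagen prolyl hydroxylase, had 53.2, 36.0 and 39.7 CPM in CA2 shRNA, 30.7 to 36.1 CPM in the Scrambled and 32.5 to 38.8 CPM in Control libraries. CA2 shRNA 2 lay within the controls, and the changes of 0.38 (adjusted p = 0.0707, SE 0.131) and 0.25 (adjusted p = 0.257, SE 0.13) did not pass. Without Scrambled 2 the change against Scrambled was 0.47 and passed (adjusted p = 0.0479), as it did at 0.48 without CA2 shRNA 2 (0.0257). P4HA2, another catalytic subunit, averaged 45.7 ± 4.64, 46.1 ± 1.98 and 46.0 ± 0.777 CPM in CA2 shRNA, Scrambled and Control, with log2 changes of -0.01 in both comparisons (SE 0.074).

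The 3 genes of lipid storage and sterols had adjusted p-values from 0.068 to 0.979. HILPDA, a lipid droplet protein, averaged 5.27 ± 0.946, 5.15 ± 1.5 and 5.44 ± 0.65 CPM in CA2 shRNA, Scrambled and Control. VLDLR, a lipoprotein receptor, had 5.54, 4.53 and 4.17 CPM in CA2 shRNA, 3.55 to 4.58 CPM in the Scrambled and 3.17 to 3.78 CPM in Control libraries, so it overlapped Scrambled but not Control (0.47 against Control, SE 0.167, adjusted p = 0.068). That change passed at 0.50 without Scrambled 2 (adjusted p = 0.0369) and at 0.60 without CA2 shRNA 3 (0.0494). INSIG2, which holds back cholesterol synthesis, had 6.84, 3.86 and 4.90 CPM in CA2 shRNA, 3.02, 3.95 and 3.93 CPM in the Scrambled and 5.13, 4.73 and 5.603 CPM in Control libraries. Here the controls differed from each other: Scrambled less Control was -0.50 (SE 0.184), with no overlap, an unadjusted p of 0.0139 and an adjusted p of 1. The change of INSIG2 was 0.52 against Scrambled (adjusted p = 0.0695, SE 0.188) and 0.01 against Control (adjusted p = 0.979, SE 0.182), and the first passed at 0.60 without Scrambled 2 (adjusted p = 0.0405) and at 0.66 without CA2 shRNA 2 (0.0335).

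In growth and stress signalling, WSB1 rose in both comparisons and DDIT4 against Control. WSB1 (ENSG00000109046, chr17:27294076-27315926, plus strand), the gene with the CACGTG before its start shown above, had 49.2, 43.6 and 42.7 CPM in CA2 shRNA, 33.1, 34.2 and 34.1 CPM in the Scrambled and 34.5, 34.8 and 32.5 CPM in Control libraries. The controls stayed within 32.5 and 34.8 CPM, and each CA2 shRNA library was above them. WSB1 rose by 0.42 (adjusted p = 0.000488, SE 0.072) against Scrambled and by 0.41 (adjusted p = 0.000552, SE 0.072) against Control, and it passed in all 19 alternatives in both.

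DDIT4 (ENSG00000168209, chr10:72273924-72276036, plus strand), the stress protein REDD1 that restrains mTOR, had 9.43, 7.96 and 8.19 CPM in CA2 shRNA, 6.75, 4.98 and 8.29 CPM in the Scrambled and 5.59, 5.61 and 5.90 CPM in Control libraries. Scrambled 3 overlapped the CA2 shRNA libraries, and no Control library did. Its changes were 0.35 against Scrambled, which did not pass (adjusted p = 0.136, SE 0.154), and 0.58 against Control, which did (adjusted p = 0.0172, SE 0.156). The call against Control was lost without CA2 shRNA 1 (adjusted p = 0.0651), Control 1 (0.0513) or Control 2 (0.0763), and the change against Scrambled was 0.55 and passed without Scrambled 3 (0.0352). In the gene models 41.2% of DDIT4's exon bases are shared with DDIT4-AS1 on the opposite strand, and the strand setting of the counting is not given.

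NDRG1, a stress-responsive protein often used as a marker of hypoxia, was the most uneven gene. It had 31.3, 6.88 and 6.11 CPM in CA2 shRNA, 9.73, 8.16 and 8.73 CPM in the Scrambled and 8.36, 10.0 and 9.36 CPM in Control libraries. CA2 shRNA 1 was above every other library, and CA2 shRNA 2 and 3 were below all 6 controls. Its mean change of 0.73 against Scrambled therefore had an SE of 0.644 and did not pass (adjusted p = 0.53), nor did that of 0.67 against Control (adjusted p = 0.599, SE 0.643). ANKRD37, an ankyrin repeat protein induced by hypoxia, had 4.09, 2.35 and 2.63 CPM in CA2 shRNA and 2.44 to 4.40 CPM in the controls, with changes of -0.05 and -0.04. Its gene model shares 40.4% of its exon bases with UFSP2 on the opposite strand.

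**Figure D3:**
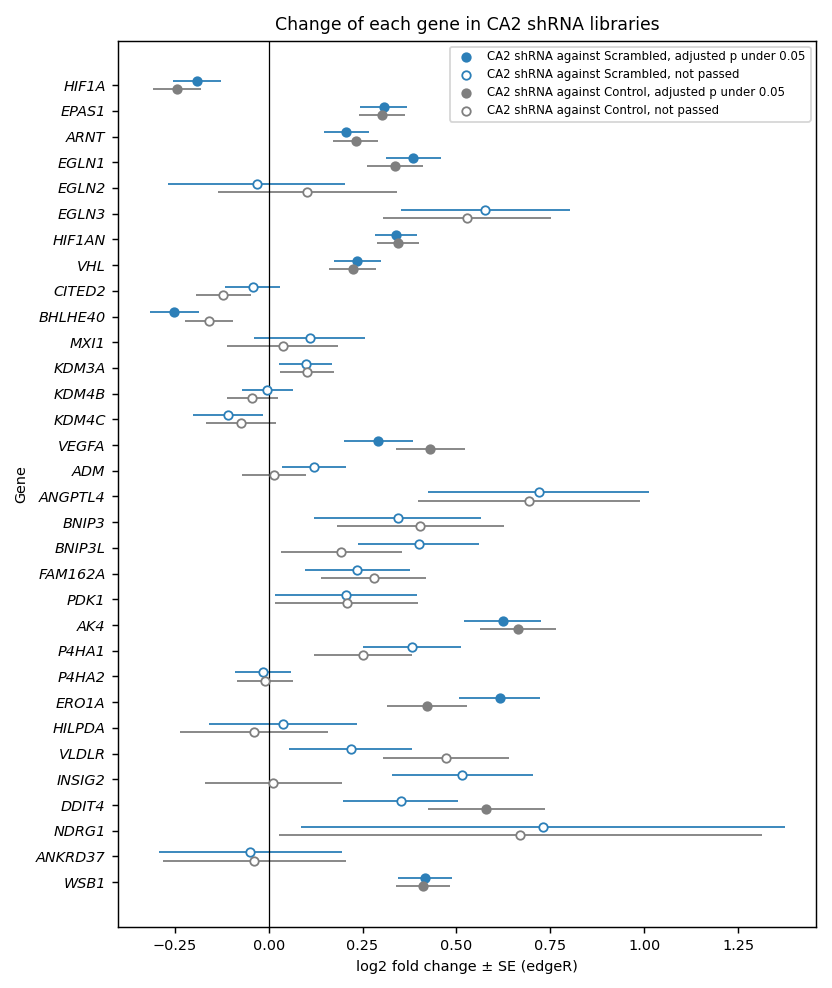
Points give the log2 fold change of each of the 32 genes in CA2 shRNA against Scrambled and against Control, bars its SE, and filled points an adjusted p under 0.05. The called rises run from 0.21 (ARNT against Scrambled) to 0.66 (AK4 against Control), and the widest bars belong to NDRG1, with an SE of 0.644.

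The uneven genes followed 1 library. CA2 shRNA 1 was the highest of the 9 libraries for 14 of the 20 genes that passed in neither comparison and for 7 of the 12 that passed in at least 1. With 0.5 CPM added to each level, CA2 shRNA 1 was at least 1.5-fold above the mean of its group mates for 7 of the 32 genes, where 1.36% of tested genes were. By the plain ratio, without that addition, these were NDRG1 (4.83-fold), ANGPTL4 (1.92-fold), BNIP3 (1.78-fold), PDK1 (1.7-fold), ANKRD37 (1.64-fold), INSIG2 (1.56-fold) and FAM162A (1.55-fold). Among the 9 genes called higher in both comparisons, the plain ratio ran from 0.906 for EPAS1 to 1.33 for AK4. Passing the test favours genes with even libraries, so this range follows in part from the selection. Of these genes, EGLN1, VHL, VEGFA, AK4, ERO1A and WSB1 were also highest in CA2 shRNA 1. Over the 32 genes the median log2 ratio of CA2 shRNA 1 to its group mates, again with 0.5 CPM added, was 0.20, against -0.01 over all tested genes. No other library exceeded a median of 0.02 over these genes, and in CA2 shRNA 2 and 3, whose group mates include CA2 shRNA 1, the medians were -0.13 and -0.08. CA2 shRNA 1 had 19960657 counts and 6.62% mitochondrial counts, both within the range of the other libraries.

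**Figure D4:**
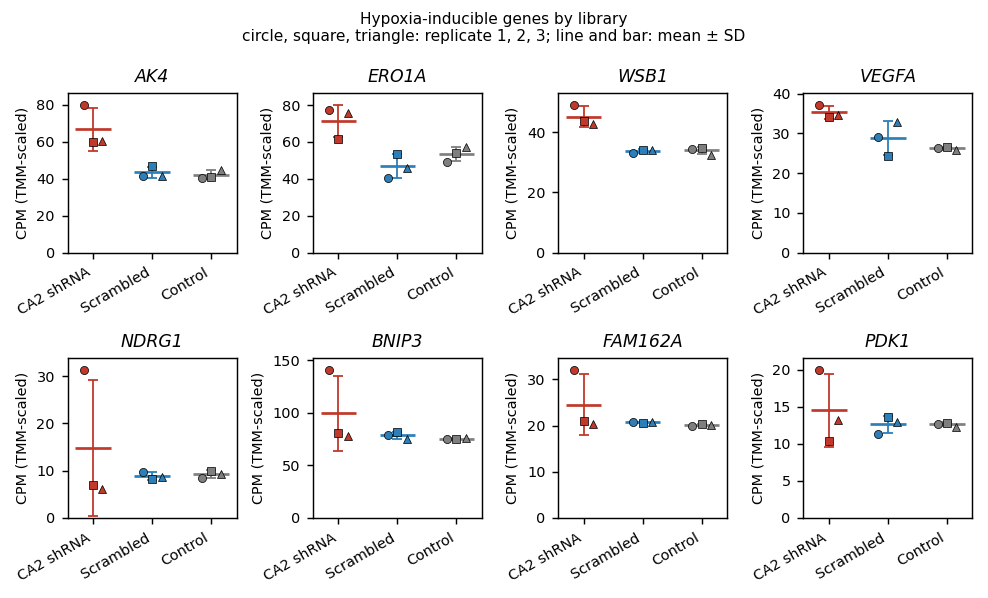
Each panel gives the CPM of 1 hypoxia-inducible gene in the 9 libraries (points), with the mean and SD of each group (line and bar). In the upper row all 3 CA2 shRNA libraries lie above all controls, while in the lower row CA2 shRNA 1 (circle) stands alone, as for NDRG1 at 31.3 CPM against 6.88 and 6.11 CPM.

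Without CA2 shRNA 1, 8 genes rose against Scrambled (7.4% of all genes tested) and 9 against Control (6.09%). All of them were also called with every library: AK4, ARNT, EGLN1, EPAS1, ERO1A, HIF1AN, VHL and WSB1 in both, and VEGFA against Control. The falls of HIF1A (-0.12, SE 0.072, adjusted p = 0.311) and BHLHE40 (-0.21, SE 0.077, adjusted p = 0.0936) against Scrambled no longer passed. NDRG1 turned over, to -0.42 against Scrambled (adjusted p = 0.0594, SE 0.141) and to -0.48 against Control (adjusted p = 0.035, SE 0.141), where it was called lower. BNIP3, FAM162A and PDK1 came to 0.04, 0.03 and -0.06 against Scrambled. The median over the 32 genes was then 0.14 against Scrambled and 0.09 against Control, beside 0.00 and 0.02 over all genes tested.

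**Figure D5:**
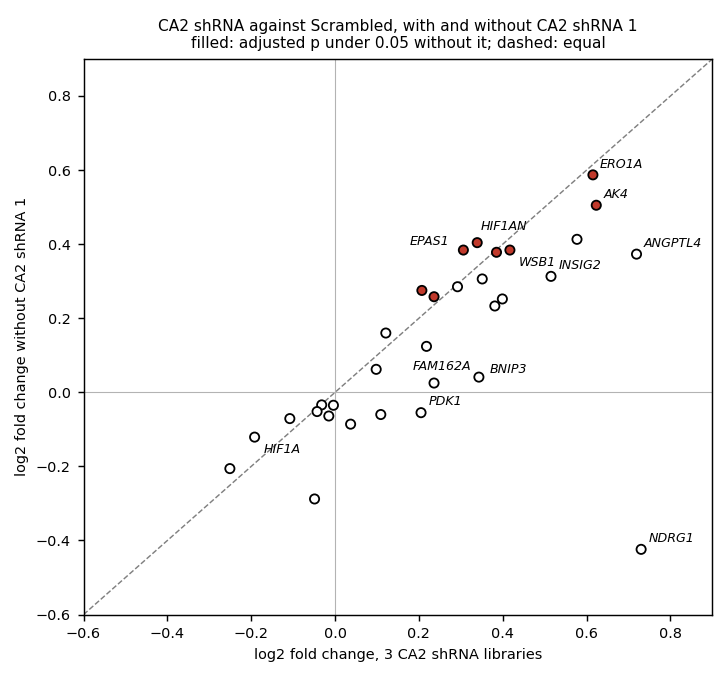
Each point is 1 of the 32 genes, with its log2 fold change in CA2 shRNA against Scrambled from all libraries (horizontal) and without CA2 shRNA 1 (vertical); filled points passed without it. AK4, ERO1A, WSB1, HIF1AN and EPAS1 stay near the dashed line of equality, while NDRG1 moves from 0.73 to -0.42 and BNIP3 from 0.34 to 0.04.

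Without both Scrambled 2 and Control 3, 11 genes rose in each comparison (12.1% and 8.77% of all genes tested). EGLN3, INSIG2 and P4HA1 joined the rises against Scrambled and VEGFA left them (0.21, adjusted p = 0.0832), and VLDLR joined those against Control. HIF1A no longer passed in either (-0.13, adjusted p = 0.194, and -0.18, adjusted p = 0.0712), while BHLHE40 still fell against Scrambled (-0.29, adjusted p = 0.00157).

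Scrambled against Control compared the control groups with each other. The control libraries did not divide by group: Scrambled 2 and Control 3 were the most alike of all pairs (chi-square per gene 3.7), while Scrambled 1 and 2 differed by 19.6 and Control 1 and 3 by 14.4. The model has no term for this split. By edgeR none of the 32 genes passed, nor did any of the 19812 tested (0.0%). At an unadjusted p under 0.05 there were 550 genes (2.78%), among them 1 of the 32, INSIG2, and DESeq2 called none of the 32, nor did edgeR without Scrambled 2 and Control 3. The median log2 change of the 32 genes was -0.00, and 15 of the 32 were above 0 (46.9%), beside 50.8% of all tested genes.

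A further 77 tested genes of the pathway, in 3 lists outside the 32, were read from the same fit. These lists were chosen with earlier results of these data known. Their counts beside the shares of all tested genes are therefore descriptive only. Of the 21 HIF targets of glycolysis and pH control, 9 rose and 2 fell against Scrambled, and 7 rose and 2 fell against Control, with a median log2 change of 0.17 and 0.16. Over all tested genes 8.02% rose and 8.88% fell against Scrambled and 6.41% rose and 8.26% fell against Control, and the 2 falls in 21 are near that share. SLC2A3, a high-affinity glucose transporter, had 40.2, 32.9 and 33.2 CPM in CA2 shRNA, 11.9, 12.6 and 11.3 CPM in the Scrambled and 10.2, 13.0 and 12.4 CPM in Control libraries. The groups were far apart, with changes of 1.57 (adjusted p = 1.08e-08, SE 0.103) and 1.58 (adjusted p = 8.96e-09, SE 0.104), although its reads are uncertain because SLC2A14 is a near-identical copy. PGAM1, a glycolytic mutase, rose by 0.39 and 0.34 (adjusted p = 0.000127 and 0.000426). CA12, a membrane-bound carbonic anhydrase, had 5.44, 3.80 and 3.55 CPM in CA2 shRNA, 2.13 to 2.53 CPM in the Scrambled and 2.46 to 3.27 CPM in Control libraries, and rose by 0.85 against Scrambled (adjusted p = 0.0058, SE 0.198), while its 0.53 against Control did not pass (adjusted p = 0.0807, SE 0.194) except without CA2 shRNA 3 (0.0468) or Scrambled 2 (0.0463). Against the direction of these, PFKFB3, which makes the activator of phosphofructokinase and is a known HIF target, had 29.8, 25.3 and 29.2 CPM in CA2 shRNA, 43.8 to 47.3 CPM in the Scrambled and 46.4 to 48.7 CPM in Control libraries. It fell by 0.69 and 0.75 (SE 0.073 in both, adjusted p = 3e-06 and 1.05e-06).

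Of 34 other hypoxia-inducible genes, 32 were tested, of which 5 rose and 2 fell against Scrambled and 5 rose and 3 fell against Control, beside 8.02%, 8.88%, 6.41% and 8.26% of all tested genes. TGFA, a ligand of the epidermal growth factor receptor, had 40.5, 37.2 and 41.4 CPM in CA2 shRNA, 21.4 to 21.6 CPM in the Scrambled and 20.2 to 24.0 CPM in Control libraries, changes of 0.88 and 0.83 (SE 0.079 in both, adjusted p = 4.01e-07 and 8.78e-07). ZNF395, a transcription factor, rose by 0.52 and 0.47 (adjusted p = 0.00192 and 0.00464). The creatine transporter SLC6A8 had 105, 101 and 96.9 CPM in CA2 shRNA, against 168 to 185 CPM in the Scrambled and 172 to 178.5 CPM in Control libraries, and fell by 0.81 and 0.79 (SE 0.056 in both, adjusted p = 1.87e-08 and 2.5e-08). IGFBP3, which binds insulin-like growth factors, fell by 0.69 and 0.77 (adjusted p = 0.000156 and 5.48e-05). Both are listed as induced by hypoxia, and both fell here.

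Of 25 other regulators of HIF, 24 were tested, of which 3 rose and 2 fell against Scrambled and 1 rose and 2 fell against Control, beside the same shares of all tested genes (8.02%, 8.88%, 6.41% and 8.26%). SIAH2, a ubiquitin ligase that degrades EGLN proteins, had 51.7, 51.7 and 51.4 CPM in CA2 shRNA, 37.8 to 41.5 CPM in the Scrambled and 34.8 to 40.9 CPM in Control libraries, and rose by 0.39 and 0.42 (adjusted p = 0.00105 and 0.000489). MDM2, the ubiquitin ligase of p53, which also binds HIF1A, fell by 0.42 and 0.43 (adjusted p = 0.0011 and 0.000949). ARNT2, a paralogue of ARNT, named here because it is the other fall in this list, had 80.6, 89.7 and 83.9 CPM in CA2 shRNA and 94.8 to 101 CPM in the 6 controls, and fell by 0.20 and 0.21 (adjusted p = 0.025 and 0.0214). The sign of its change was opposite to that of ARNT. However, the 2 falls in 24 are near the share of all tested genes, and results of the alternatives are not given for ARNT2. PSMD10 and RBX1, parts of the degradation machinery, rose against Scrambled by 0.27 and 0.24 (adjusted p = 0.00805 and 0.028) and did not pass against Control (adjusted p = 0.139 and 0.144). Against Control, PSMD10 passed without Scrambled 2 (adjusted p = 0.0455). Both calls against Scrambled were lost without CA2 shRNA 2 (adjusted p = 0.0587 and 0.0723), and that of RBX1 also without CA2 shRNA 3 (0.061), Scrambled 1 (0.0988), Scrambled 3 (0.0863) or Control 2 (0.0587).

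CA2 shRNA 1 was the highest of the 9 libraries for 11 of the 21 glycolysis and pH genes, 15 of the 32 other hypoxia-inducible genes and 1 of the 24 regulators, beside 9.18% of all tested genes. CA9, the carbonic anhydrase most widely used as a hypoxia marker, and PPFIA4 were named after their values were seen. CA9 had 13.6, 2.35 and 1.13 CPM in CA2 shRNA, 0.849 to 1.29 CPM in the Scrambled and 0.732 to 1.01 CPM in Control libraries, and its changes did not pass (adjusted p = 0.155 and 0.15) except with DESeq2 (0.0225 and 0.0135) or without CA2 shRNA 3 (0.0373 and 0.0354). PPFIA4 had 23.4, 6.03 and 6.58 CPM in CA2 shRNA, against 4.91 to 9.19 CPM in the Scrambled and 3.99 to 8.40 CPM in Control libraries. As with NDRG1 and BNIP3, the library that stood out was CA2 shRNA 1, whereas for SLC2A3, TGFA and SIAH2 all 3 CA2 shRNA libraries lay above every control.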

How the data were processed

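The authors deposited 1 table per library that holds, per the file headers, a whole-number count, a CPM and an RPKM for every gene. The submitters' processing notes name GRCh38, featureCounts 1.4.6-p5 (Subread), STAR 2.5.1a and bcl2fastq. Which annotation release and strand setting were used, and how multi-mapping or overlapping reads were counted, is not given in the sources used here. The deposited CPM and RPKM equalled values recomputed from the counts to within 5.1e-11.

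The deposited counts were tested with edgeR 4.0.16 in R 4.3.3: filterByExpr by group, TMM factors (0.977 to 1.01), the robust quasi-likelihood F test on all 9 libraries with a term per group and 6 residual degrees of freedom, two-sided, Benjamini-Hochberg over 19812 genes called under 0.05 whatever the fold change. The procedure was tested on simulated data with a common spread for all genes and no library standing apart. That test does not cover uneven libraries such as those seen here. Printed CPM are TMM-scaled, and deposited RPKM was used to set different genes side by side. No exact permutation test is given, since 3 libraries against 3 allow no p under 0.1. All pairs of libraries differed by more than sampling noise (chi-square per gene 3.7 to 30.3), so none was counted as a duplicate. The 32 genes, the lists and the tests were chosen with earlier results of these data known. Values of every library are given for those of the 32 genes that passed in a comparison and for the HIF subunits and oxygen sensors; other genes are given by library, range or change. Each other list contributes by name at most 4 genes called against Scrambled and 2 called against Control, largest changes first. ARNT2, CA9 and PPFIA4 were named outside this rule.

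The 19 alternatives were DESeq2 1.42.0, edgeR with library totals, with upper-quartile factors or with DESeq2 size factors, testing without a filter or at 1 CPM in 3 libraries, thinning to 16994368 counts, the 6 compared libraries only, a replicate block, leaving out Control 3 and Scrambled 2 together, and leaving out each library. Promoter windows are RefSeq's (GRCh38.p14). Of the windows of the 4 genes with the largest changes called in both comparisons, stretches that lie in exons were cut to 30 bases around the core.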

Additional observations from a re-analysis of the deposited data

How the results depend on the processing

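The count of higher genes among the 32 stayed between 7 and 12 against Scrambled (9 as reported) and between 7 and 13 against Control (10 as reported) over the 19 alternatives. The share of all genes called moved too. Against Scrambled, 7.4% of all genes tested rose without CA2 shRNA 1, and 12.1% without both Control 3 and Scrambled 2. Such shares are not given here for every setting, so a changed count alone does not speak to the 32 genes. DESeq2 added INSIG2, P4HA1 and BNIP3L against Scrambled, which made 12. The count of lower genes, 2 against Scrambled, was 1 with DESeq2, with DESeq2 size factors, with the filter of 1 CPM in 3 libraries, with only the 6 libraries compared and without both Control 3 and Scrambled 2, and 0 to 2 on leaving out 1 library. Against Control it was 1 as reported, 2 with only the 6 libraries, 0 without both Control 3 and Scrambled 2, and 0 to 2 on leaving out 1 library. The cause was not tested. The only change of direction among called results was NDRG1 against Control, at -0.48 without CA2 shRNA 1 and up to 1.10 without CA2 shRNA 3. With a replicate block 10 were higher and 2 lower against Scrambled, and 11 higher and 1 lower against Control; the correlations of same-numbered libraries ran from -0.19 to 0.11, so the numbers were not taken as pairs. ANGPTL4 passed with the block (adjusted p = 0.0217 against Scrambled and 0.0286 against Control) and with no filter (0.00843 and 0.0166), as did P4HA1 with no filter (4.59e-05 and 0.0314), INSIG2 with no filter against Scrambled (0.0253) and FAM162A with no filter against Control (0.0422), while CA2 against Scrambled did not pass with no filter (0.0544). EPAS1, EGLN1, HIF1AN, AK4 and WSB1 passed in all 19 alternatives in both comparisons. EGLN3, ANKRD37 and ANGPTL4, at a few CPM, had the fewest counts of the 32 genes, and small changes in them may have been missed. How far depth limited their tests was not tested.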
